A study of Mus musculus with 12 samples.

Results

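Amacrine cells are the inhibitory interneurons of the inner retina, and 9 genes that mark them were followed in whole mouse retina. They were the genes of the GABA synthesizing enzymes (Gad1, Gad2), of the vesicular transporter for GABA and glycine (Slc32a1), of the glycine uptake transporter (Slc6a9), of the enzymes that make acetylcholine (Chat) and dopamine (Th), and of 3 transcription factors (Tfap2a, Tfap2b, Pax6). The list was fixed by name, and Ensembl identifiers were matched to symbols in GENCODE M21. All 9 were among the 55487 genes of the deposited table, and all 9 were among the 16233 genes with enough counts to test.

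The study compared 5xFAD with wild-type (WT) retina by sequencing of polyadenylated RNA, with 3 libraries in each of 4 groups: 5xFAD at 1 month, WT at 1 month, 5xFAD at 6 months and WT at 6 months. The 5xFAD animals carry the strain label Tg6799, an Alzheimer disease model with transgenes, among them mutant human APP, driven by the neuronal Thy1 promoter. The WT animals are C57BL/6J. The source is whole retina in every library, and neither the sex nor the number of animals behind a library is given in the sources used here, so p-values measure only the spread between these samples.

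Amacrine cells receive input from bipolar cells and inhibit bipolar cells, ganglion cells and each other. Most release either GABA or glycine. Starburst amacrine cells release acetylcholine as well as GABA and take part in the detection of movement, and a sparse class of amacrine cells is the source of retinal dopamine. Pax6 is needed for the formation of these cells and stays on in the mature inner retina, and the AP-2 proteins encoded by Tfap2a and Tfap2b are expressed in postmitotic amacrine cells. In whole-retina RNA, fewer cells of a type and less RNA per cell cannot be told apart.

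Expected counts totalled 10928031 to 19552537 per library. Levels are given as CPM, counts relative to each library's TMM-scaled total, and ± is the SD over 3 libraries for a level or share and an approximate SE for a log2 fold change. Of the 11 amacrine markers in the marker list, 7 of which are among the 9 genes, none was at 0, and their summed level ran from 1821 to 2053 CPM in 5xFAD at 1 month, 1847 to 1989 in WT at 1 month, 1687 to 1767 in 5xFAD at 6 months and 1939.8 to 1990 in WT at 6 months. Some other marker sums moved with the groups. Those of horizontal and ganglion cells overlapped between the genotypes at both ages, those of Muller glia at 1 month only and those of microglia at neither age. Rod markers reached 50233 to 54054 CPM in 5xFAD and 45730 to 49373 CPM in WT at 1 month, and 49752 to 53941 CPM in 5xFAD and 41078 to 44671 CPM in WT at 6 months. The 4 cone genes summed to 846 to 1011 CPM in 5xFAD and 1078 to 1306 CPM in WT at 1 month, and 1202 to 1351 CPM in 5xFAD and 899.9 to 990.5 CPM in WT at 6 months. As with Gad2 and Tfap2b below, bipolar and endothelial sums were higher in 5xFAD at 1 month and lower at 6 months. The 5 bipolar genes gave 1166 to 1241 CPM in 5xFAD and 951 to 1085 CPM in WT at 1 month, and 944 to 972 CPM in 5xFAD and 977 to 1185 CPM in WT at 6 months. The 3 endothelial genes gave 186 to 200.4 CPM in 5xFAD and 116 to 129 CPM in WT at 1 month, and 76.7 to 88.7 CPM in 5xFAD and 107 to 144 CPM in WT at 6 months. Of the tissue around the retina, lens, pigment epithelium, optic nerve glia and cornea sums did not overlap between the genotypes at 1 month, while those of ciliary body and iris did. The 7 lens genes summed to 5.99 to 67.3 CPM in 5xFAD and 0.504 to 1.26 CPM in WT, and the 5 pigment epithelium genes to 294 to 326 CPM in 5xFAD and 465 to 533 CPM in WT. Optic nerve glia genes summed to 57.7 to 65.8 CPM in 5xFAD and 29.9 to 56.8 CPM in WT. Cornea and surface ectoderm genes summed to 0.521 to 1.35 CPM in 5xFAD and 0.18 to 0.428 CPM in WT. Apart from 1 gene of optic nerve glia, no gene of the lists in this paragraph was at 0 in all libraries. The part of these differences in the results below was not tested. Ribosomal RNA took its largest shares in 5xFAD at 6 months replicate 1 (1.11%) and replicate 2 (0.446%) and in WT at 1 month replicate 2 (0.325%), and results that rest on these libraries are also given without them. That omission leaves 1 library of 5xFAD at 6 months, so only effect sizes are given for it.

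Compared per unit of transcript length (TPM, counts divided by transcript length and scaled to a fixed total, over all 12 libraries), Pax6 was the most abundant of the 9 genes at 353 ± 64.1 TPM. Gad1 followed at 200.1 ± 27.1 TPM, Slc6a9 at 142 ± 30.7, Tfap2b at 68.6 ± 21.7, Slc32a1 at 56 ± 11.2, Tfap2a at 25.8 ± 5.2, Gad2 at 22.2 ± 7.43, Chat at 10.5 ± 4.72 and Th at 5.8 ± 1.61 TPM. The ranges over the 12 libraries did not overlap between Pax6 and Gad1, between Slc6a9 and Tfap2b, or between Slc32a1 and Tfap2a. The other neighbours in this order overlapped in range.

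Gad2 and Tfap2b were the 2 genes that differed between the genotypes, and each did so in opposite directions at the 2 ages. At 1 month both were higher in 5xFAD, as were 10.7% of all genes tested, and none of the 9 genes was lower, against 8.91% of all genes. At 6 months both were lower in 5xFAD, as were 3.89% of all genes, and none of the 9 was higher, against 2.48%. In either direction, 2 of 9 genes passed at each age, against 19.6% of all genes at 1 month and 6.38% at 6 months. At an unadjusted p under 0.05, 4 of the 9 differed at each age, against 5276 of all 16233 genes at 1 month and 3394 at 6 months. The DESeq2 Wald test called 2 of the 9 at each age, against 3541 and 1459 of all genes. By edgeR, Gad2 and Tfap2b were both called higher at 1 month and lower at 6 months, as were 2.89% of all genes tested. In either order, 4.12% were called in opposite directions at the 2 ages. The median log2 fold change of the 9 genes was 0.09 at 1 month and -0.22 at 6 months, where that of all genes was -0.04 and 0. For Gad2 and Tfap2b, as for the Gad1-201 and downstream-start shares given later, the mean of 5xFAD at 1 month lay closer to that of WT at 6 months than to that of WT at 1 month, and the mean of WT at 1 month lay closest to that of 5xFAD at 6 months. The groups follow the labels as given, and a genotype effect that turns round with age cannot be told apart from an exchange of libraries between groups in these files.

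**Figure D1:**
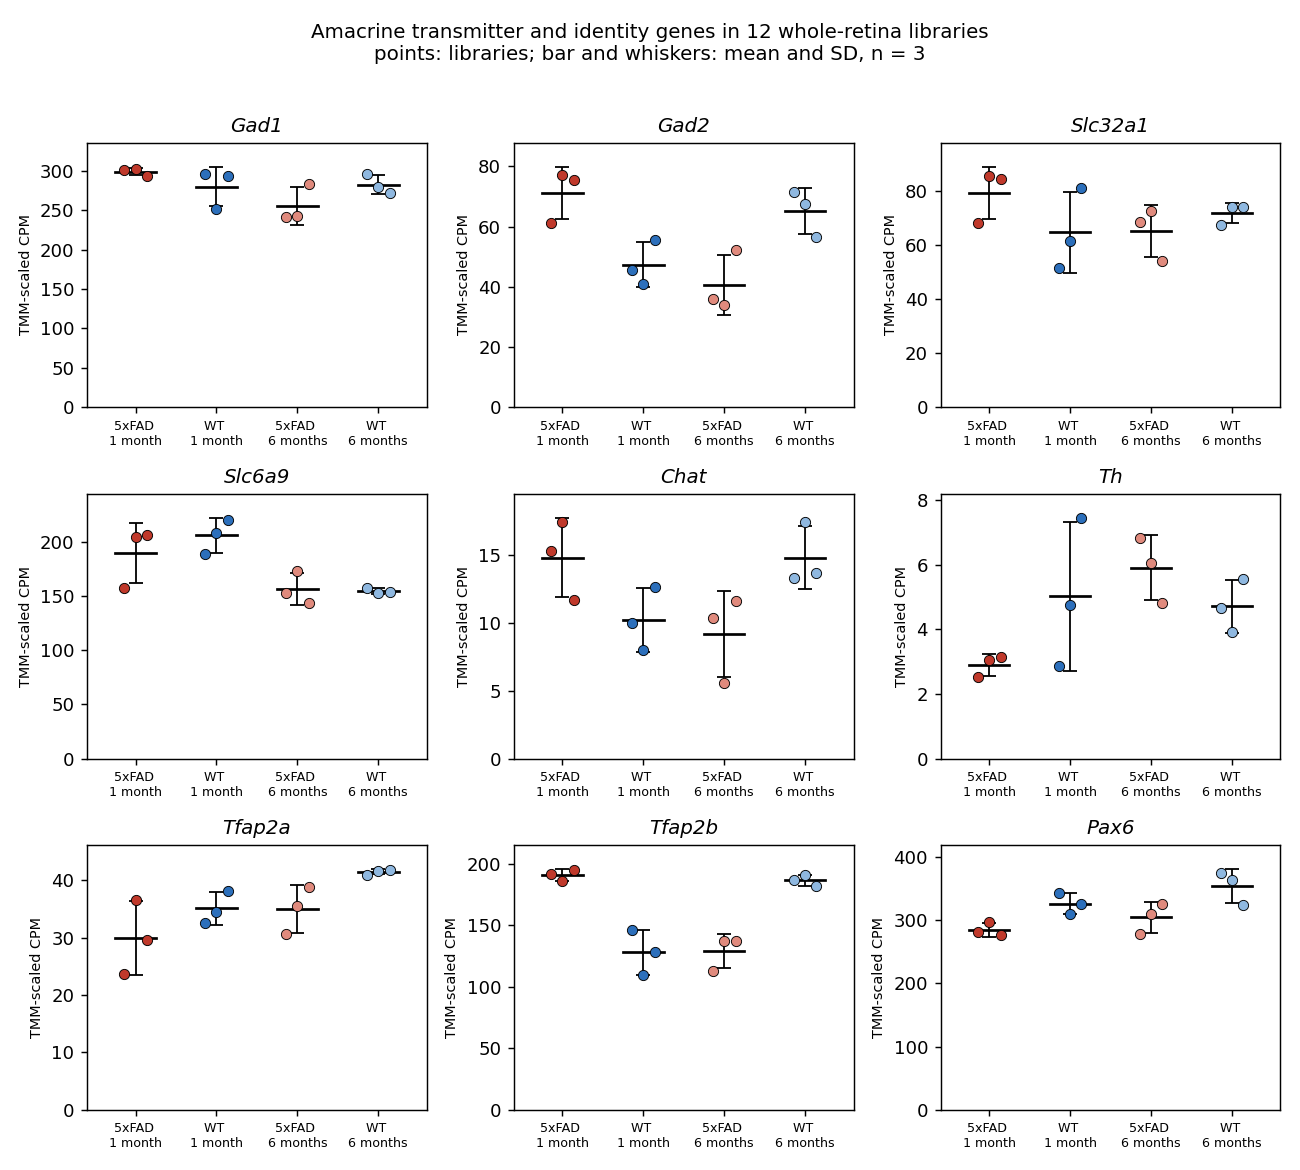
TMM-scaled CPM of each of the 9 genes by group, with 1 point per library and the mean and SD of the 3 libraries as a bar with whiskers. Gad2 and Tfap2b are high in 5xFAD at 1 month and in WT at 6 months and low in the other groups, while Gad1 lies between 241 and 302 CPM in all 12 libraries.

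Among the genes of GABA synthesis, Gad1 (chromosome 2, 70553072 to 70602014, plus strand, GRCm38) makes most of the GABA of a neuron, and Gad2 (chromosome 2, 22622205 to 22693874, plus strand) encodes the second glutamate decarboxylase, which is bound to synaptic vesicles. Gad2 read 61.2, 77 and 75.4 CPM in 5xFAD at 1 month, against 45.5, 40.9 and 55.6 CPM in WT at 1 month. Every 5xFAD library lay above every WT library (log2 fold change 0.59 ± 0.16, edgeR adjusted p 0.00926). At 6 months it read 35.9, 33.9 and 52.2 CPM in 5xFAD, against 71.4, 67.5 and 56.5 CPM in WT. Every 5xFAD library now lay below every WT library, where 37.6% of all genes had groups that did not overlap at 1 month and 24.2% at 6 months (-0.68 ± 0.15, adjusted p 0.0104). Within 5xFAD the level was lower at 6 than at 1 month (-0.80 ± 0.16, adjusted p 6.78e-04). Without the 3 libraries highest in ribosomal RNA, which leaves only replicate 3 of 5xFAD at 6 months, that difference was -0.43. Within WT it was 65.1 ± 7.74 CPM at 6 months and 47.4 ± 7.55 CPM at 1 month, a difference that did not pass (0.46 ± 0.15, adjusted p 0.0591) although the groups did not overlap, as in 30.7% of all genes. It passed with a filter of at least 1 count (adjusted p 0.00452), with only the groups compared (0.0399), and without replicate 3 of WT at 1 month (0.0268) or at 6 months (0.0321). The Gad2 call at 1 month was lost without WT at 1 month replicate 2 (0.49, adjusted p 0.0647), without 5xFAD at 1 month replicate 2 (0.53, adjusted p 0.0542), and after each library's dependence on gene length and GC content was fitted and subtracted, called length and GC correction here (0.25 ± 0.13, adjusted p 0.221). The call at 6 months was lost without WT replicate 1 (adjusted p 0.0638) or 2 (0.0549), and without 5xFAD replicate 1 (0.0595) or 2 (0.0643). The genotype difference at 6 months was -0.32 without the 3 libraries highest in ribosomal RNA.

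Gad1 passed in no comparison. It read 301, 302 and 294 CPM in 5xFAD at 1 month, against 296, 251 and 293 CPM in WT at 1 month. At 6 months it read 241, 242 and 283 CPM in 5xFAD, against 296, 279 and 272 CPM in WT. The genotype groups overlapped at both ages (0.09 ± 0.09, adjusted p 0.508 at 1 month; -0.15 ± 0.09, adjusted p 0.381 at 6 months). In 5xFAD all 3 libraries at 6 months lay below all 3 at 1 month, a separation seen in 36.5% of all genes (-0.23 ± 0.09, adjusted p 0.0692). That difference passed without 5xFAD at 6 months replicate 3 (-0.33, adjusted p 0.0126) and in the DESeq2 Wald test (-0.24, adjusted p 0.0305).

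Slc32a1 (chromosome 2, 158610767 to 158615748, plus strand) loads GABA and glycine into vesicles. It read 68.1, 85.5 and 84.3 CPM in 5xFAD at 1 month, against 51.7, 61.4 and 81.2 CPM in WT. The 6-month libraries read 68.7, 72.5 and 54.3 CPM in 5xFAD, against 67.5, 74.1 and 74.2 CPM in WT. The groups overlapped at both ages, and the log2 fold changes of 0.29 ± 0.14 and -0.14 ± 0.14 did not pass (adjusted p 0.161 and 0.631). The difference at 1 month passed without WT replicate 3, the highest WT library (0.52, adjusted p 0.0144), and after length and GC correction (0.37, adjusted p 0.0349).

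Slc6a9 (chromosome 4, 117834506 to 117875198, plus strand) clears glycine from the synapse and, in the retina, sits on glycinergic amacrine cells. It read 158, 205 and 207 CPM in 5xFAD at 1 month, against 189, 209 and 221 CPM in WT. In the older retinas it read 153, 173 and 144 CPM in 5xFAD, against 158, 153 and 154 CPM in WT. The genotypes overlapped at both ages (-0.12 ± 0.10, adjusted p 0.462; 0.01 ± 0.10, adjusted p 0.968). In WT, Slc6a9 fell with age: every library at 6 months lay below every library at 1 month (-0.41 ± 0.10, adjusted p 0.0131). In 5xFAD the change with age was -0.28 ± 0.10 (adjusted p 0.0581). That change passed without 5xFAD at 1 month replicate 1 (-0.39, adjusted p 0.0123) or at 6 months replicate 2 (-0.35, adjusted p 0.0362). The 2 age changes were not shown to differ (interaction 0.13 ± 0.15, adjusted p 0.564). The WT call was lost without WT at 1 month replicate 3 (-0.32, adjusted p 0.0931), without WT at 6 months replicate 1 (-0.39, adjusted p 0.0608) or without replicate 2 (-0.36, adjusted p 0.093).

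Chat (chromosome 14, 32408203 to 32465989, minus strand), the enzyme of starburst cells, was low in whole retina and passed at neither age. It read 15.3, 17.5 and 11.7 CPM in 5xFAD at 1 month, against 10, 8 and 12.7 CPM in WT (0.53 ± 0.26, adjusted p 0.16). The 6-month values were 10.4, 5.58 and 11.6 CPM in 5xFAD, against 13.3, 17.5 and 13.7 CPM in WT (-0.69 ± 0.26, adjusted p 0.119). The groups overlapped at 1 month and did not at 6 months, and without 5xFAD at 6 months replicate 3 the 6-month difference passed (-0.92, adjusted p 0.0431). Slc18a3, the vesicular acetylcholine transporter, lies inside Chat and shares no exonic base with it. It averaged 8.3 ± 1.88 CPM in 5xFAD and 7.2 ± 1.5 CPM in WT at 1 month (0.20 ± 0.30, adjusted p 0.693), and ran from 3.5 to 5.89 CPM in 5xFAD and from 4.84 to 6.94 CPM in WT at 6 months (-0.22 ± 0.31, adjusted p 0.757).

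Th (chromosome 7, 142892752 to 142931128, minus strand), the rate-limiting enzyme of dopamine synthesis, was the least abundant of the 9. It read 2.52, 3.04 and 3.14 CPM in 5xFAD at 1 month, against 2.86, 4.76 and 7.45 CPM in WT. The older libraries read 6.82, 6.06 and 4.83 CPM in 5xFAD, against 4.65, 3.92 and 5.57 CPM in WT. The genotype differences were -0.79 ± 0.38 (adjusted p 0.15) and 0.32 ± 0.36 (adjusted p 0.683), with overlap at both ages. In 5xFAD all 3 libraries at 6 months lay above all 3 at 1 month, and the change of 1.02 ± 0.38 just missed the threshold (adjusted p 0.0527). It passed without 5xFAD at 6 months replicate 3 (1.13, adjusted p 0.0494) and in the DESeq2 Wald test (1.01, adjusted p 0.0439). The dopamine transporter gene Slc6a3 and the decarboxylase gene Ddc had too few counts to test.

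Of the transcription factors, Tfap2b (chromosome 1, 19208914 to 19238576, plus strand) gave the firmest difference. It read 192, 186 and 195 CPM in 5xFAD at 1 month, against 146, 109.9 and 128 CPM in WT. The groups were far apart relative to their spread (0.58 ± 0.10, adjusted p 3.86e-04). At 6 months it read 113, 137 and 137 CPM in 5xFAD, against 187, 191 and 182 CPM in WT, again with no overlap (-0.53 ± 0.10, adjusted p 0.00313). It fell with age in 5xFAD (-0.57 ± 0.10, adjusted p 3.87e-04) and rose with age in WT (0.54 ± 0.10, adjusted p 0.00169). The comparisons across age use the same libraries as those across genotype, so the 4 values are not independent. No single library left out ended any of the 4 calls. Without the 3 libraries highest in ribosomal RNA, which leaves only 1 library of 5xFAD at 6 months, the genotype difference at 6 months was -0.44. After length and GC correction all 4 calls held at smaller sizes, at 0.28 ± 0.08 at 1 month (adjusted p 0.026) and -0.33 ± 0.08 at 6 months (adjusted p 0.0124).

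Its paralogue Tfap2a (chromosome 13, 40715302 to 40738376, minus strand) read 23.6, 36.6 and 29.6 CPM in 5xFAD at 1 month, against 32.6, 34.5 and 38.2 CPM in WT (-0.23 ± 0.15, adjusted p 0.32). The 6-month libraries read 30.6, 35.6 and 38.8 CPM in 5xFAD, against 41, 41.7 and 41.8 CPM in WT. The 6-month groups did not overlap, yet the difference did not pass (-0.24 ± 0.15, adjusted p 0.383). Unlike Tfap2b, it had the same sign at both ages.

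Pax6 (chromosome 2, 105668900 to 105697364, plus strand) read 282, 297 and 276 CPM in 5xFAD at 1 month, against 343, 309.9 and 325 CPM in WT. All 5xFAD libraries lay below all WT libraries (-0.19 ± 0.09, adjusted p 0.123). Its 6-month values were 278, 310.2 and 325 CPM in 5xFAD, against 375, 363 and 324 CPM in WT (-0.22 ± 0.09, adjusted p 0.144). The 6-month difference passed without WT at 6 months replicate 3 (-0.28, adjusted p 0.0488) and without 5xFAD at 6 months replicate 3 (-0.30, adjusted p 0.0415). Pax6 is expressed in amacrine, horizontal and ganglion cells alike, so its level is not that of amacrine cells alone.

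**Figure D2:**
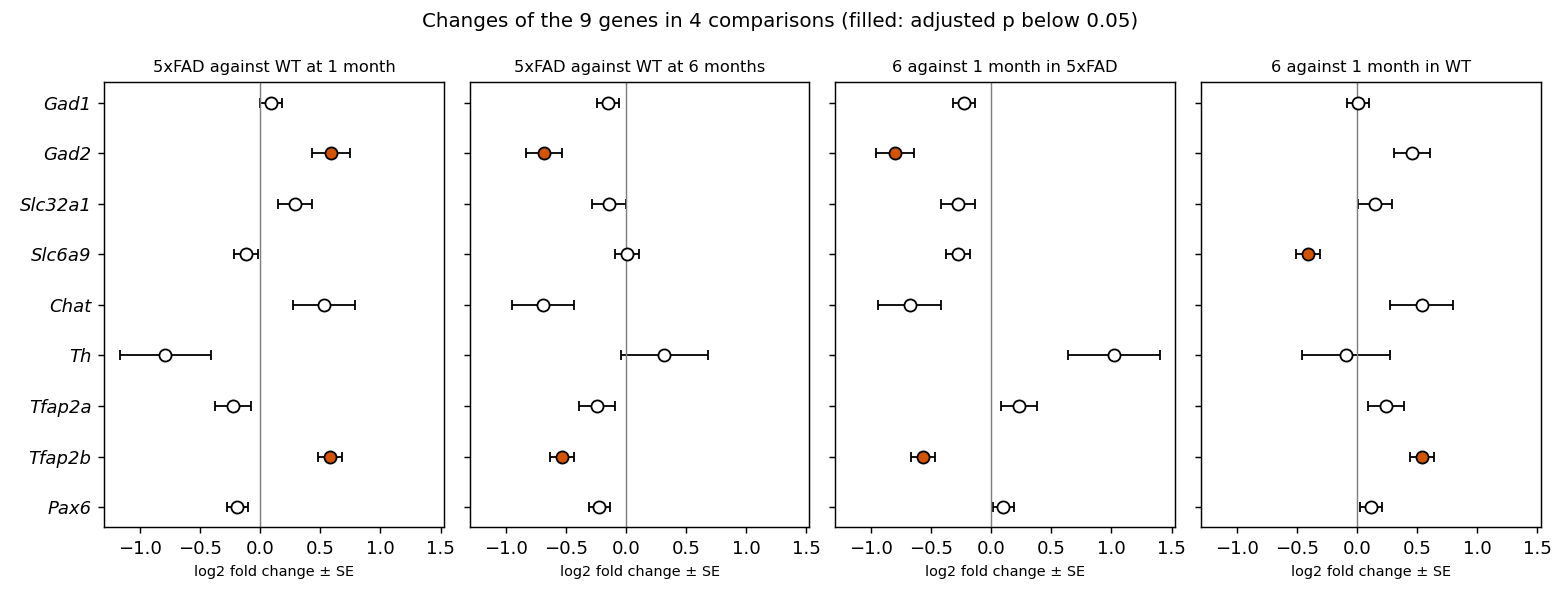
Log2 fold change of the 9 genes in 4 comparisons, with the SE as whiskers and filled points where the edgeR adjusted p is below 0.05. Gad2 and Tfap2b lie right of 0 at 1 month (0.59 and 0.58) and left of it at 6 months (-0.68 and -0.53).

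Across age, 2 of the 9 genes were called in each genotype, against 23.2% of all genes in 5xFAD and 10.5% in WT. In 5xFAD, Gad2 and Tfap2b were lower at 6 months and none was higher, where 12.4% of all genes were called lower and 10.8% higher. In WT, Tfap2b was higher and Slc6a9 lower, where 6.01% and 4.49% of all genes were called. The difference between the 2 genotype effects was itself tested as the interaction of genotype and age, and 3 of the 9 genes passed, all towards lower values at 6 months, where 25% of all genes passed, 13.3% in that direction. The log2 genotype effect at 6 months minus that at 1 month was -1.11 ± 0.15 for Tfap2b (adjusted p 8.53e-06), -1.26 ± 0.22 for Gad2 (1.82e-04) and -1.22 ± 0.37 for Chat (0.0171). The Chat interaction was lost without 5xFAD at 1 month replicate 2 (-1.09, adjusted p 0.0558) and without WT at 6 months replicate 2 (-1.12, adjusted p 0.0552). It was -0.73 without the 3 libraries highest in ribosomal RNA, which leaves only 1 library of 5xFAD at 6 months. Slc32a1 came next at -0.44 ± 0.20 (adjusted p 0.118), and it passed without WT at 1 month replicate 3 (-0.68, adjusted p 0.0107), after length and GC correction (-0.48, adjusted p 0.0375) and with a filter of at least 1 count (-0.48, adjusted p 0.0391). Gad1 was at -0.24 ± 0.13 (adjusted p 0.175) and passed without 5xFAD at 6 months replicate 3 (-0.37, adjusted p 0.028). Th had the opposite sign (1.12 ± 0.53, adjusted p 0.125).

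Within the Gad1 total, the share of its main transcripts differed between the groups. Gad1-201, the protein-coding transcript of 3355 nt, and Gad1-206, a transcript of 2996 nt that GENCODE classes as a processed transcript with no coding sequence, together held 95.8% to 99.8% of the gene's counts in the 12 libraries. Gad1-201 held 71.9%, 81.1% and 68.9% of Gad1 in 5xFAD at 1 month, against 26.3%, 20.3% and 18.2% in WT at 1 month. At 6 months it held 35.6%, 34.5% and 29.2% in 5xFAD, against 81.5%, 95.9% and 74.8% in WT. No library of one genotype overlapped the other at either age, and the genotype with the larger share changed between the ages. Such separation was not counted over the shares of other transcripts. In gene levels, 37.6% of all genes had it at 1 month and 24.2% at 6 months. Gad1-206 held most of the rest, with 25.9%, 17% and 28.4% in 5xFAD and 72.5%, 78.4% and 79.6% in WT at 1 month, then 64.2%, 65.1% and 70.1% in 5xFAD and 14.3%, 0% and 23.8% in WT at 6 months.

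Gad1-201 rose 3.67-fold in 5xFAD at 1 month (224 ± 18.9 CPM in 5xFAD and 60.9 ± 15.7 CPM in WT; log2 fold change 1.88 ± 0.17, edgeR adjusted p 0.0022) and fell at 6 months (82.9 ± 1.44 CPM in 5xFAD and 244 ± 33.5 CPM in WT; -1.55 ± 0.17, adjusted p 0.00663). It fell with age in 5xFAD (-1.43 ± 0.17, adjusted p 0.00493) and rose with age in WT (2.00 ± 0.17, adjusted p 0.00126). Gad1-206 averaged 71.9 ± 18.2 CPM in 5xFAD and 215 ± 16.8 CPM in WT at 1 month, and 169 ± 29.6 CPM in 5xFAD and 36.5 ± 33.8 CPM in WT at 6 months. Its log2 fold changes of -1.58 ± 1.18 and 2.21 ± 1.21 did not pass (adjusted p 0.597 and 0.509), and 1 WT library at 6 months was listed at 0. Left out of the age comparison in WT, that library (replicate 2) turned Gad1-206 into a call (-1.97, adjusted p 0.0353).

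The pair differ at the 5′ end. Gad1-201 has 17 exons and Gad1-206 has 16, and they share 2919 exonic bases. Gad1-206 begins 4335 bases downstream of Gad1-201 in its own first exon, and from the next exon (chr2:70567186-70567248) onward both run to the same 3′ end, within 2 bases. The start codon lies in exon 2 of Gad1-201, which Gad1-206 lacks. The reads that tell them apart are therefore those over 434 bases at the start of Gad1-201 and 77 bases at the start of Gad1-206. Bases from these stretches are shown because nearly all of what separates the pair lies at the 5′ end. Capitals mark the transcript's own bases (for Gad1-201 the coding part of exon 2, chr2:70563832-70563910; for Gad1-206 the whole first exon, chr2:70566377-70566453; plus strand, GRCm38), and lower case the first 20 bases of the exon they share.
Gad1-201: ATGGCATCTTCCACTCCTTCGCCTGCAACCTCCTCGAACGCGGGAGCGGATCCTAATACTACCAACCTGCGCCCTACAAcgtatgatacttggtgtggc
Gad1-206: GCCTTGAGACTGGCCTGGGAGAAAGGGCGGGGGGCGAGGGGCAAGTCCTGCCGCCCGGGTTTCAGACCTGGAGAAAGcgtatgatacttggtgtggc

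**Figure D3:**
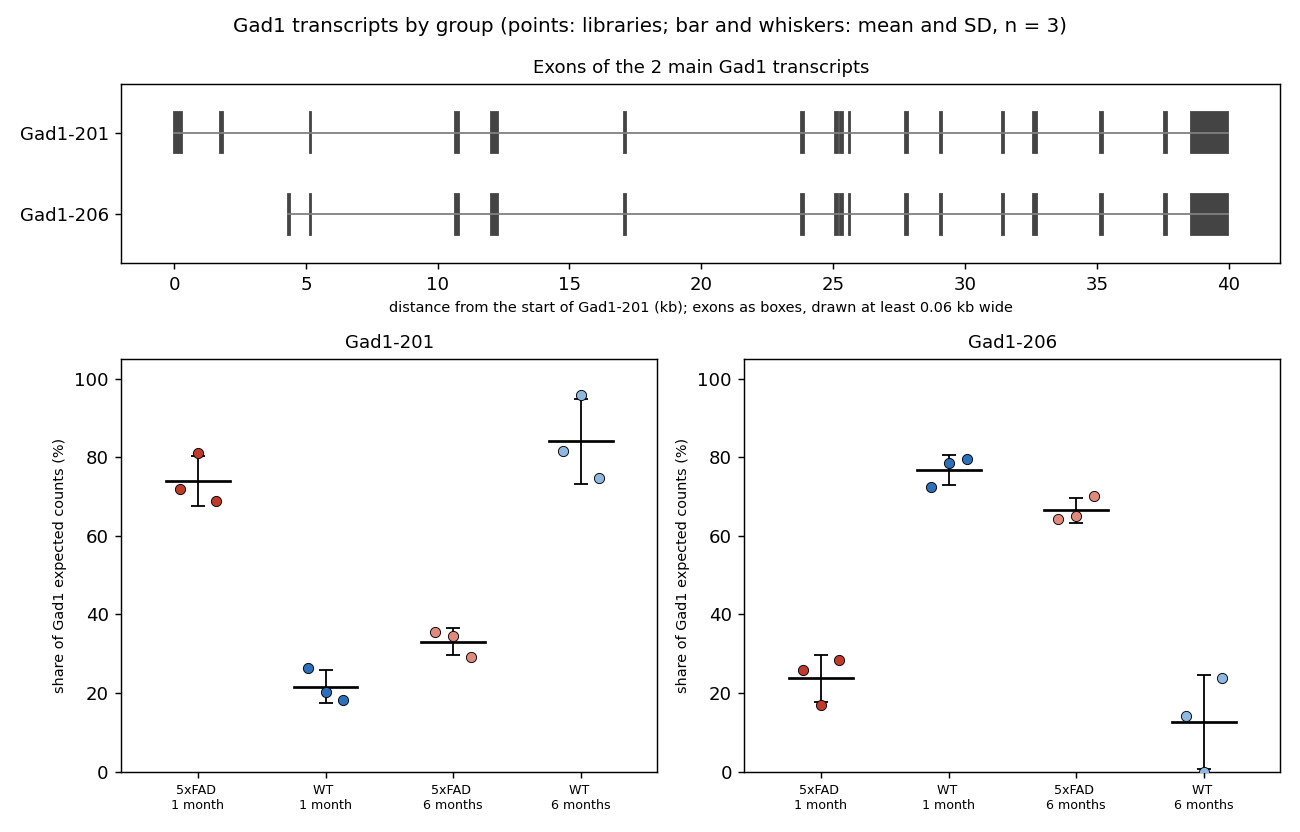
Top, exons of Gad1-201 and Gad1-206 as boxes against the distance from the start of Gad1-201 in kb. Bottom, each transcript's share of the gene's expected counts in percent, with 1 point per library and the mean and SD of 3 libraries. The share of Gad1-201 lies between 68.9% and 81.1% in 5xFAD at 1 month and between 18.2% and 26.3% in WT at 1 month, and the order of the genotypes is the other way round at 6 months.

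Over the 9 genes, 77 transcripts were in the table and 40 had enough counts to test. At 1 month 2 of the 40 were called higher in 5xFAD (Gad1-201 and Pax6-201), where 2.52% of all transcripts were called. At 6 months 1 was called lower (Gad1-201), where 0.488% of all transcripts were called. With age, Gad1-201 was the 1 transcript called in 5xFAD (3.12% of all transcripts), and Gad1-201 and Pax6-201 were the 2 called in WT (0.916%). The median log2 fold change of the 40 was 0.61 at 1 month and -0.71 at 6 months, against 0.05 and -0.13 for all transcripts tested. Tfap2b-201 (5863 nt) and Gad2-201 (5744 nt), the main transcripts of the 2 genes called at gene level, had log2 fold changes of 0.51 ± 0.13 and 0.60 ± 0.20 at 1 month and -0.46 ± 0.13 and -0.72 ± 0.20 at 6 months, and none of these passed over all transcripts (adjusted p 0.0651, 0.16, 0.156 and 0.159). Tfap2b-201 at 1 month passed with DESeq2 size factors (adjusted p 0.0488) and without WT replicate 1 (0.0420), and Gad2-201 at 6 months without 5xFAD replicate 3 (0.0315). The interaction passed for both, at -0.97 ± 0.18 for Tfap2b-201 (adjusted p 0.012) and -1.32 ± 0.28 for Gad2-201 (0.0234), where 6.05% of all transcripts passed. When length and GC correction was made on transcripts, Tfap2b-201 turned to -0.14 ± 0.11 at 1 month and 0.29 ± 0.11 at 6 months (adjusted p 0.597 and 0.153), so at this level its direction depends on that step. Gad2-201 became -0.04 ± 0.16 at 1 month.

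Among the 19 Pax6 transcripts tested, Pax6-201 and Pax6-216 had genotype differences of opposite sign. Unlike the Gad1 pair, they do not hold most of the gene's counts, and their 3′ ends lie 293 bases apart. Pax6-201 held 0.553% to 4.47% of Pax6 as group means. Larger shares lay on the protein-coding Pax6-206 (17.8% to 25.4%) and a protein-coding transcript of 2370 nt (15.8% to 30.5%). By edgeR, neither was called between the genotypes at 1 or 6 months (adjusted p 0.931 and 0.887, and 0.635 and 0.945). Pax6-201, a protein-coding transcript of 2869 nt, averaged 12.9 ± 7.31 CPM in 5xFAD and 1.78 ± 0.754 CPM in WT at 1 month (2.87 ± 0.55, adjusted p 0.0269), and 3.32 ± 1.06 CPM in 5xFAD and 13.5 ± 2.59 CPM in WT at 6 months (-2.02 ± 0.53, adjusted p 0.139). Its call at 1 month was lost without WT replicate 1 (adjusted p 0.0744) or 2 (0.109), without 5xFAD replicate 1 (0.0967) or 2 (0.0696), and after length and GC correction (0.0507). Its call with age in WT was lost whichever of the WT libraries was left out (adjusted p 0.0507 to 0.181). Pax6-216, a processed transcript of 2148 nt that starts 9194 bases downstream of Pax6-201, had differences of the opposite sign. It held 15.6%, 5.47% and 8.08% of Pax6 in 5xFAD at 1 month, against 34.5%, 41.1% and 20.7% in WT. The 6-month shares were 17%, 13.9% and 29.8% in 5xFAD, against 6.1%, 2.78% and 6.22% in WT. The genotypes did not overlap at either age, a separation that was not counted over the shares of other transcripts. In edgeR the log2 fold changes were -1.91 ± 0.49 (adjusted p 0.077) and 1.78 ± 0.49 (adjusted p 0.16). After length and GC correction both passed (-2.09, adjusted p 0.0376; 2.07, adjusted p 0.0259).

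The share of counts on downstream-starting transcripts also differed between whole libraries. Over 2076 other genes with transcripts that share a 3′ end and start at least 500 bases apart, the median share of a gene's counts on the downstream starts was 26.2 ± 0.436% in 5xFAD and 42.6 ± 4.24% in WT at 1 month, and 42.4 ± 1.21% in 5xFAD and 28.6 ± 3.06% in WT at 6 months. Averaged over counts, the length of the transcripts counted was 4236 ± 15.4 nt in 5xFAD and 3709 ± 135 nt in WT at 1 month, and 3658 ± 55.2 nt in 5xFAD and 3911 ± 189 nt in WT at 6 months. In the last measure 5xFAD and WT overlapped at 6 months. In both measures, as in Gad1-206, Pax6-216, Gad2 and Tfap2b, the sign of the genotype difference was opposite at the 2 ages, and the part of the library measures in those results was not tested. Gad2-201 and Tfap2b-201 are both longer than this average in every library.

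**Figure D4:**
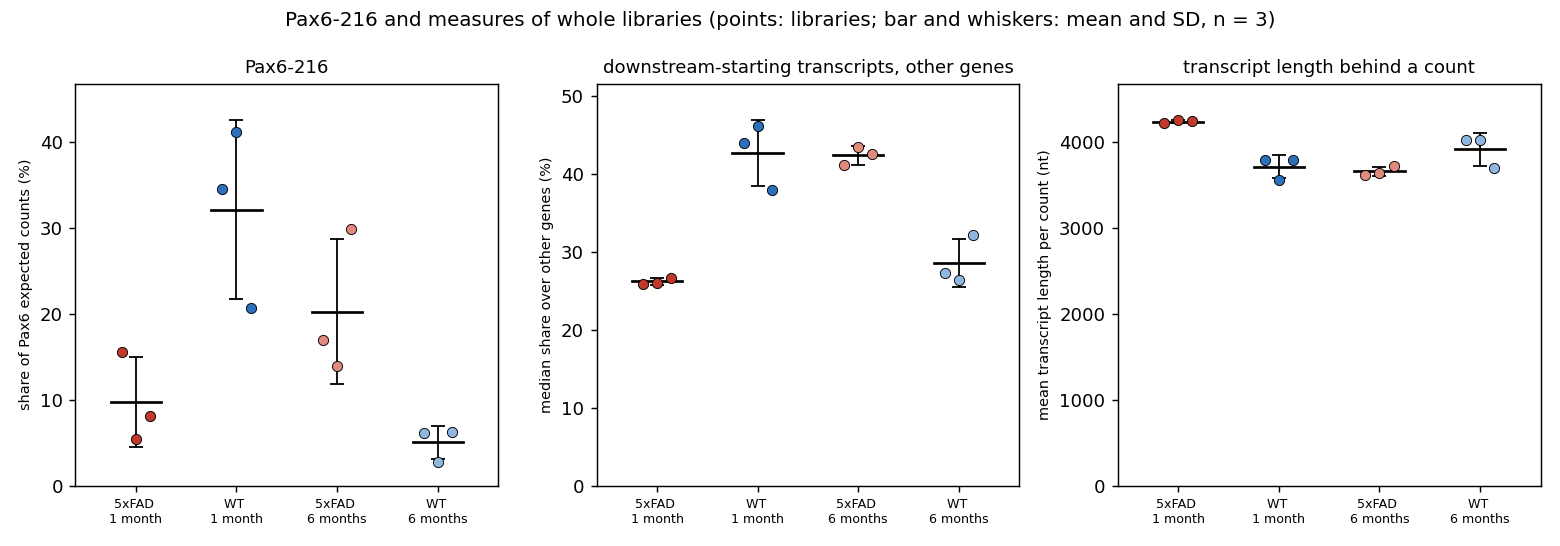
Share of Pax6 counts on Pax6-216 (left), median share of counts on downstream-starting transcripts over 2076 other genes (middle) and mean transcript length per count (right), by group, with 1 point per library and the mean and SD of 3 libraries. The middle panel shows 5xFAD at 1 month (25.9% to 26.7%) below WT at 1 month (37.9% to 46.1%) and 5xFAD at 6 months (41.1% to 43.5%) above WT at 6 months (26.4% to 32.1%).

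The study's title concerns retained introns, and the share of a gene's counts on transcripts of that class could be tested for 3 of the 9 genes (Gad1, Tfap2b and Pax6). The edgeR test called none at either age, where 2.89% of 4772 genes were called at 1 month and 0.189% at 6 months. At an unadjusted p under 0.05, 1 of the 3 differed at 1 month (Gad1, log2 odds ratio 2.16 ± 0.96, adjusted p 0.252) and 0 at 6 months. The Pax6 share was 11.1 ± 1% in 5xFAD and 13.4 ± 1.47% in WT at 1 month, and 9.65 ± 3.12% in 5xFAD and 12.5 ± 0.889% in WT at 6 months. The Gad1 and Tfap2b shares were under 1% on average in every group.

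Some reads of these genes could belong to a neighbour, since the library kit does not mark strand. Slc6a9 shares 1429 exonic bases with Ccdc24, 511 with Gm17114 and 46 with B4galt2 on the other strand, and Ccdc24 itself stood at 166 ± 36.7 CPM in 5xFAD and 233 ± 29.9 CPM in WT at 1 month. Slc32a1 shares 697 bases with Gm14205, which had at most 0.269 CPM in any library, and Tfap2a shares 265, 380 and 73 bases with 3 antisense genes. No exonic base is shared between Gad1 and Gad1os, or between Pax6 and Pax6os1.

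The promoters of the 3 genes with a called interaction are shown because that test called all 3 in the same direction. They are the RefSeq windows (GRCm38.p6) of 250 bases before the start of each gene, printed only where they hold no annotated exon of that gene, in the direction of transcription. The windows of all 9 genes were searched on both strands for an AP-2 motif (GCCNNNGGC), an E-box (CAGCTG) and a homeodomain core (TAATTA), which do not overlap in the stretches printed, and matches are in capitals. The AP-2 motif was in 13.7% of the 32851 promoter windows of that length, the E-box in 13% and the homeodomain core in 4.84%. Gad2 held 2 AP-2 matches in its window, 1 of them in the stretch printed. Chat held 1 E-box, and the Tfap2b window, which lies in the first intron of Tfap2b-201, held no match. It lies before the start of Tfap2b-202 (19212054), which held 0.208% to 1.54% of Tfap2b counts as group means. The bases before the start of the main transcript Tfap2b-201 (19208914) were not searched. Among the other genes, 1 of the 2 Pax6 windows held 1 AP-2 match and 1 of the 2 Tfap2a windows 1 homeodomain core.
Gad2, chr2:22622077-22622204, plus strand: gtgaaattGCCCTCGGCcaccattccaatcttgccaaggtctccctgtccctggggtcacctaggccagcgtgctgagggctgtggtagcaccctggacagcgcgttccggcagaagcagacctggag
Chat, chr14:32465990-32466159, minus strand: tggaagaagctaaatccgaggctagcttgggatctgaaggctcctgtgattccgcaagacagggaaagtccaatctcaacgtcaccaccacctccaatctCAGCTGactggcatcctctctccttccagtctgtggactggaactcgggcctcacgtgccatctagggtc
Tfap2b, chr1:19211804-19212053, plus strand: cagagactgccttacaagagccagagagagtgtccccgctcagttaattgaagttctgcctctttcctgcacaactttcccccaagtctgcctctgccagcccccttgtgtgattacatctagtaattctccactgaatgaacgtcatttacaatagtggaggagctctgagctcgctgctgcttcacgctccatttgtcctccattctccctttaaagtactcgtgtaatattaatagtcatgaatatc

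Other genes of the same pathways were followed by lists. Among 8 further genes of GABA supply, uptake and breakdown, 3 were called higher and none lower in 5xFAD at 1 month (median 0.25), and none higher and 2 lower at 6 months (median -0.27). Of all genes, 10.7% were called higher and 8.91% lower at 1 month (median -0.04), and 2.48% higher and 3.89% lower at 6 months (median 0). At an unadjusted p under 0.05 the list had 4 genes at each age, against 5276 of all 16233 genes at 1 month and 3394 at 6 months. The DESeq2 Wald test called 4 of the list at 1 month and 3 at 6 months, against 3541 and 1459 of all genes. Slc38a1, a glutamine transporter that supplies transmitter precursor, averaged 295 ± 22 CPM in 5xFAD and 172 ± 24.4 CPM in WT at 1 month (0.78 ± 0.11, adjusted p 2.66e-05), and 205 ± 18.4 CPM in 5xFAD and 276 ± 27.2 CPM in WT at 6 months (-0.42 ± 0.11, adjusted p 0.0173). The GABA transporter Slc6a11 went the same way (0.33 ± 0.10, adjusted p 0.0185; -0.41 ± 0.10, adjusted p 0.0138). Abat, which breaks down GABA, was higher at 1 month (0.35 ± 0.11, adjusted p 0.0238). Of the glycine list, 3 of 4 genes could be tested, and Slc6a5, the neuronal glycine transporter, was called at both ages, with 37.7 ± 3.09 CPM in 5xFAD and 24 ± 7.42 CPM in WT at 1 month (0.65 ± 0.19, adjusted p 0.0195), and 20.5 ± 4.78 CPM in 5xFAD and 34.2 ± 2.77 CPM in WT at 6 months (-0.74 ± 0.19, adjusted p 0.0223).

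Of 24 further amacrine transcription factors tested, 4 were higher and none lower in 5xFAD at 1 month, and none higher and 5 lower at 6 months (medians 0.16 and -0.21), where 10.7% of all genes were called higher at 1 month and 3.89% lower at 6 months. At an unadjusted p under 0.05 there were 7 at 1 month and 6 at 6 months, against 5276 and 3394 of all 16233 genes. The DESeq2 Wald test called 5 at each age, against 3541 and 1459 of all genes. Tcf4 averaged 132 ± 6.66 CPM in 5xFAD and 70.4 ± 17.9 CPM in WT at 1 month (0.90 ± 0.15, adjusted p 3.03e-04), and 67.9 ± 12.2 CPM in 5xFAD and 119 ± 10.9 CPM in WT at 6 months (-0.81 ± 0.15, adjusted p 0.00291). Ebf1 (0.83 ± 0.18 and -0.92 ± 0.18) and Prox1 (0.77 ± 0.12 and -0.48 ± 0.12) were also called at both ages. Ebf3 was called at 1 month only (0.44 ± 0.15, adjusted p 0.0362) and Six3 at 6 months only (-0.38 ± 0.10, adjusted p 0.0291), which does not show that the genotype effect differed between the ages. Whole-retina counts do not show which cells these factors came from. The bipolar and endothelial sums given above were also higher in 5xFAD at 1 month and lower at 6 months. Of 24 peptides and subtype markers, 3 were higher and 5 lower in 5xFAD at 1 month (median -0.32), against 10.7% and 8.91% of all genes. At 6 months none was higher and 1 lower (median -0.03), against 2.48% and 3.89%. At an unadjusted p under 0.05 there were 12 at 1 month and 6 at 6 months, against 5276 and 3394 of all genes. The DESeq2 Wald test called 8 and 1, against 3541 and 1459 of all genes. The interaction called 6 towards higher and 3 towards lower values at 6 months (median 0.24), against 11.7% and 13.3% of all genes. Cartpt, a neuropeptide gene, was lower in 5xFAD at 1 month (59 ± 2.16 CPM in 5xFAD and 95 ± 12 CPM in WT; -0.69 ± 0.12, adjusted p 2.07e-04), as were Gng3 (-0.77 ± 0.13) and Calb2 (-0.41 ± 0.10), the gene of calretinin.

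None of the 10 further genes of acetylcholine handling and starburst cells and none of the 14 of dopamine handling was called between the genotypes at either age by edgeR. Of all genes, edgeR called 19.6% at 1 month and 6.38% at 6 months. At an unadjusted p under 0.05, the acetylcholine list had 2 genes at 1 month and 3 at 6 months. The DESeq2 Wald test called 0 and 1 of that list. The dopamine list had 3 genes at an unadjusted p under 0.05 at each age, and the DESeq2 Wald test called 1 at each. Of all 16233 genes, 5276 and 3394 had an unadjusted p under 0.05 at 1 and 6 months. The DESeq2 Wald test called 3541 and 1459 of all genes. The interaction called 3 genes in each list, where 25% of all genes were called. They were Isl1 (0.52 ± 0.16), Megf10 (-0.62 ± 0.21) and Megf11 (-0.76 ± 0.27) in the acetylcholine list, and the dopamine receptor genes Drd4 (0.62 ± 0.16) and Drd1 (-0.82 ± 0.22) and the pteridine reductase gene Qdpr (0.58 ± 0.19) in the dopamine list. With age in 5xFAD, Megf11 and Megf10, surface receptors that space starburst cells, were lower (-0.99 ± 0.19, adjusted p 6.03e-04; -0.43 ± 0.15, adjusted p 0.0446), and Ache, which breaks down acetylcholine, was higher (0.30 ± 0.11, adjusted p 0.0492). Maob, which oxidizes amines, was also higher with age in 5xFAD (1.5 ± 0.44, adjusted p 0.0158), at 5.67 ± 1.45 CPM at 6 months and 2 ± 0.332 CPM at 1 month, as was Drd4 (0.32 ± 0.11, adjusted p 0.0373), while Drd1 was lower (-0.57 ± 0.15, adjusted p 0.00948). With age in WT, Isl1, a transcription factor of starburst and ganglion cells, was lower (-0.51 ± 0.11, adjusted p 0.00437). After length and GC correction the Megf10 value was 0.01 with age in 5xFAD and 0.03 for the interaction.

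Among 11108 other protein-coding genes at a mean of at least 5 CPM, without predicted genes, the genes whose profile over the 12 libraries lay closest to each of the 9 were found by the root mean square difference of centred log2 CPM. Gad2 was closest to Unc13c, a synaptic vesicle priming gene (0.096, where Gad2 itself varied by 0.39), and to Ncoa6 (0.114). Tfap2b was closest to Il6st (0.088, own variation 0.30) and Pde4dip (0.091). Slc6a9 lay nearest to Sez6 (0.057, own variation 0.21) and Tbc1d9b (0.099), and Gad1 to Gprasp1 (0.06, own variation 0.12) and Dzip3 (0.063). For Pax6 (own variation 0.14) the nearest were Utp18 (0.071) and Nxf1 (0.075), for Slc32a1 (0.22) Prrc2a (0.108) and Arhgap39 (0.11), and for Tfap2a (0.23) Ypel4 (0.101) and Arl8a (0.131). The low genes had larger distances and also varied more, with Med14 (0.152) and Spry4 (0.18) for Chat (own variation 0.44) and Trmt112 (0.231) and Uqcr10 (0.232) for Th (0.48). The distances are not scaled to a gene's own variation, so they do not rank how close the profiles are.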

How the data were processed

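Expected counts, which are estimated and not normalised, were deposited by the authors for genes and for transcripts. Tools and build named in the submitters' processing notes are GRCm38.p6, RSEM 1.3.3, STAR 2.7.1a, Trim Galore 0.6.6 and DESeq2 1.32.0, with no roles given. Per the labels' protocols, the library kit selects polyadenylated RNA and does not mark strand. Identifiers were looked up in GENCODE M21 (55227 of 55487 genes and 141469 of 142699 transcripts found).

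After rounding, edgeR 4.0.16 (R 4.3.3, limma 3.58.1) was run with TMM, filterByExpr by group and robust quasi-likelihood over all 12 libraries (8 residual degrees of freedom), with Benjamini-Hochberg adjustment over all 16233 genes or 45326 transcripts and a threshold of 0.05. The SE is the absolute log2 fold change over the square root of F. TPM came from transcript counts and GENCODE lengths. Retained-intron shares used paired columns with a mean of at least 10 counts in each class. The downstream-start share, chosen after the data were seen, took genes with at least 600 counts and transcripts with at least 5% of them and 3′ ends within 50 bases.

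The 9 genes and the lists were chosen with earlier results of these data known. All 9 are given. Of each list, up to 4 called genes with the smallest p per comparison could be named, plus Slc18a3, Slc6a5, Slc6a3 and Ddc where tested, and 2 nearest profiles per gene (log2 CPM, prior count 2). A gene of the lists is not reported here. Alternatives were DESeq2 1.42.0 size factors and Wald test, library size alone, filters of at least 1 count (genes) or 10 (transcripts), a minimum of 50 counts for retained introns, a replicate block, fitting only the groups compared, length and GC correction (splines with 4 degrees of freedom; on transcripts it was added after seeing the data), omission of the 3 libraries with most ribosomal RNA, and omission of each library. Totals ran from 10928031 to 19552537 expected counts per library. The edgeR fits of genes and transcripts, the DESeq2 Wald test, the replicate block, the gene-level length and GC correction and the retained-intron test were run on simulated counts. The other steps were not. Figures used Python 3.11.15, pandas 2.3.3 and matplotlib 3.10.9.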

Additional observations from a re-analysis of the deposited data

Results flagged for a closer look

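The genotype difference at 6 months minus that at 1 month passed the interaction test in edgeR for 3 of the 9 genes, where 25% of all genes tested passed. It was -1.11 for Tfap2b, with every 5xFAD library above every WT library at 1 month and below it at 6 months. It was -1.26 for Gad2, with the same complete separation at both ages. It was -1.22 for Chat, whose groups overlapped at 1 month.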

How the results depend on the processing

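Calls among the 9 genes moved most in the age comparison within 5xFAD, where edgeR called 2. The DESeq2 Wald test called 5, and a filter of at least 1 count gave 4. Of all 16233 genes, 3772 were called there by edgeR and 4171 by the DESeq2 Wald test. The other settings in this section have no such count beside them, so their calls cannot be set against all genes or transcripts. Omission of the 3 libraries with most ribosomal RNA leaves only 1 library of 5xFAD at 6 months, so its calls are not counted here. With 1 library left out, calls ran from 1 to 3 at 1 month, 1 to 4 at 6 months, 2 to 5 with age in 5xFAD, 1 to 3 with age in WT and 2 to 4 for the interaction. Transcript calls ran from 1 to 3 at 1 month, 1 to 3 at 6 months, 1 to 4 with age in 5xFAD and 1 to 2 with age in WT, and no retained-intron share was called (0 in each). DESeq2 size factors gave 4 transcript calls at 1 month and 4 with age in WT. Length and GC correction of transcripts, added after seeing the data, gave 3 at 6 months and 4 with age in WT. It turned Tfap2b-201 to -0.14 at 1 month, 0.29 at 6 months, 0.3 with age in 5xFAD and -0.13 with age in WT, and Gad2-201 to -0.04 at 1 month and -0.18 with age in WT. The cause was not tested.

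Some differences changed sign, and of those below only Megf10 had been called in the main fit. Slc6a9 at 6 months was -0.01 with library size alone, -0.02 with a filter of at least 1 count, -0.11 without the 3 libraries with most ribosomal RNA and -0.07 to 0.04 with 1 library left out. Megf10 had been called at -0.43 with age in 5xFAD and at -0.62 for the interaction. After the correction of genes, Megf10 was 0.01 with age in 5xFAD and 0.03 for the interaction. Gad1 was then -0.07 and Th 0.01 with age in WT, and the Tfap2a interaction was 0.11. When those libraries were left out, Slc18a3 was 0.01 at 6 months, Gad1 -0.05 with age in WT, and the Tfap2a and Pax6 interactions 0.15 and 0.11. With 1 library left out, Gad1 ran from -0.06 to 0.09 and Th from -0.34 to 0.35 with age in WT, and the interaction from -0.17 to 0.15 for Tfap2a and -0.12 to 0.01 for Pax6.

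Same-numbered libraries did not deviate together (correlations -0.09 to 0.06), so no pairing of samples by number was detected. With the replicate block, gene calls were 2, 2, 2 and 2 in the 4 comparisons and 3 for the interaction, and transcript calls were 1 at 1 month and 1 with age in WT. Th and Chat, at under 20 CPM in every library, are limited by depth.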
